A study of Mus musculus with 6 samples.

Results

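The collagen chains are the secreted and membrane-bound proteins that wind into triple helices and build most of the extracellular matrix. The 40 genes were taken by symbol, from Col1a1 to Col28a1, out of the 32285 genes counted in each library of the series. They were chosen with their levels in these same libraries in view, so their levels between cell classes are given as a description, with no test. The study measured the septal area of the brain of wild type mice in 6 libraries of 1 group, with no treatment and no second genotype. The sources used here state no age, sex or number of animals. Nothing states that the libraries came from separate animals, so the spread between samples and every p-value may measure technical variation only. PolyA RNA was counted at its 3' end in droplets, as unique molecular identifiers (UMIs) per barcode. The series title speaks of single nuclei and the protocol text of single cells, and barcodes are called nuclei here.

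Collagen genes fall into families by the structure they build. Fibril-forming chains (types I, II, III, V, XI, XXIV and XXVII) make rope-like fibrils, type IV makes the sheet of the basement membrane, and type VI makes beaded filaments. Fibril-associated chains (types IX, XII, XIV, XVI, XIX, XX and XXII) decorate fibrils, types VIII and VII make networks and anchors, types XV and XVIII carry sugar chains at basement membranes, and types XIII, XXIII and XXV span the cell membrane. In the brain, collagen is known mainly from the meninges and the vessel wall, where fibroblasts, pericytes and endothelial cells meet.

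Barcodes with at least 500 detected genes numbered 54623, after 6 to 238 were removed per library. The 6 libraries held 70183544 to 95175260 UMIs in all, with a median of 5175 to 6863 UMIs per kept nucleus. Nuclei were sorted into 15 classes by detected marker genes, none of which is a collagen gene, and each name carries "-like" for that reason. In all, 43248 nuclei entered a class, 6056 passed more than 1 broad gate and were left out, and 5152 passed none. The fibroblast-like class was small, with 157 nuclei (19 to 35 per sample) and a median of 7 of its 15 markers detected against 0 pericyte and 0 endothelial markers. Pericyte-like nuclei had a median of 4 of 7 pericyte, 2 fibroblast and 1 endothelial markers detected, and the part of these other markers in their collagen levels was not tested. Pericyte-like nuclei numbered 466, endothelial-like 835, ependymal-like 2697, lateral septum-like neurons 10140 and medium spiny-like neurons 737. Depth differed between classes, from a median of 2066 UMIs in endothelial-like to 19691 in medial septum-like nuclei, so UMIs were summed per sample and class and scaled to a total of 1000000 (CPM). Class limits were soft for some neurons: 380 of 438 interneuron-like and 447 of 737 medium spiny-like nuclei lay exactly at the number of markers needed.

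Fibroblast-like nuclei carried the most collagen RNA of the 15 classes. The 40 genes together reached 6918 ± 895 CPM (SD, n = 6) there, with the lowest sample at 6071 and the highest at 8654. Pericyte-like nuclei followed at 1522 ± 68.6 CPM, then lateral septum-like neurons at 1395 ± 60.6 and ependymal-like nuclei at 1238 ± 63.0. Oligodendrocyte-like nuclei stood lowest at 246 ± 26.6 CPM. The fibroblast-like samples lay above all samples of the other 14 classes, while the ranges of pericyte-like and lateral septum-like samples overlapped.

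Of the 40 genes, 39 had a mean of at least 10 CPM in their highest class. Type II collagen, Col2a1, the main fibril of cartilage, was the exception and reached 3.84 ± 0.970 CPM in oligodendrocyte-like nuclei. Fibroblast-like nuclei were the highest class of 22 of the 39, against 14.9% of the 14117 other genes with the same level, marker genes left out. Vascular and fibroblast-like classes together were highest for 26 (background 32.2%), the 5 glial classes for 8 (49.3%) and the 7 neuron classes for 5 (18.6%). For 16 of the 39, the samples of the highest class lay above all samples of the second, where 33.4% of the other genes did so. The median ratio of the highest to the second class was 2.68 for collagen genes and 1.34 for the other genes. Since the choice of genes used these levels, nothing is read from the counts beyond their description.

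**Figure D1:**
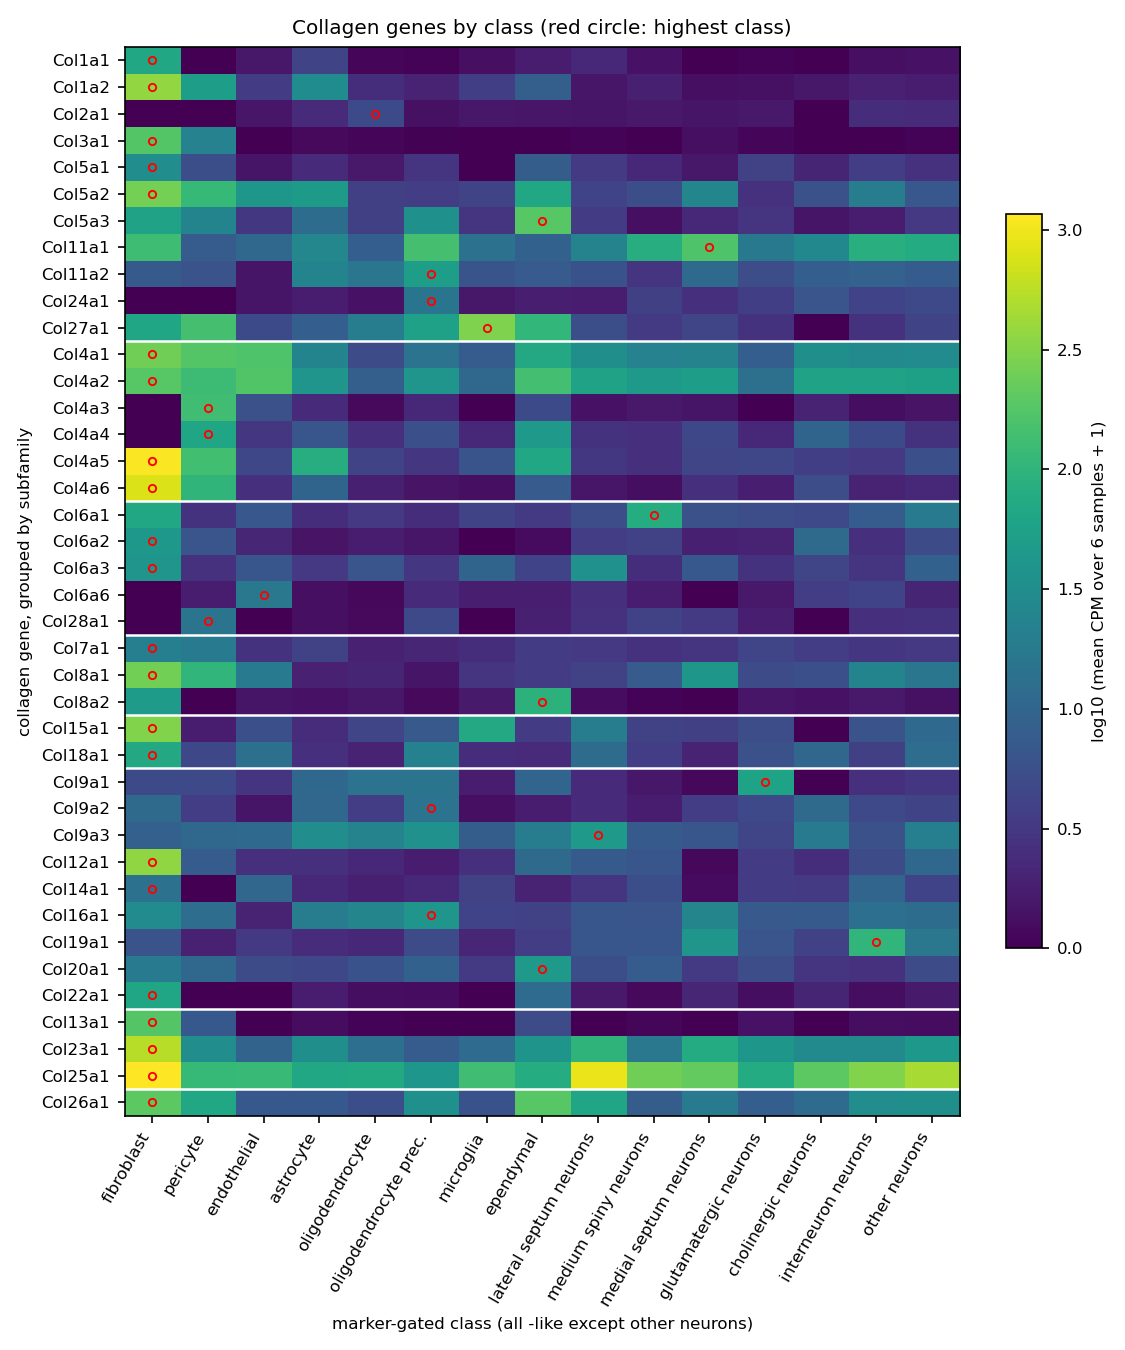
Mean level of each of the 40 collagen genes (rows, grouped by family with white lines) in 15 marker-gated classes (columns), as log10 of the mean CPM over 6 samples plus 1. Red circles mark the highest class, which is fibroblast-like for 22 of the 39 genes at 10 CPM or more.

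Classical interstitial fibril genes were concentrated in fibroblast-like nuclei. Col1a2, the second chain of type I collagen, stood at 254, 328 and 582 CPM in the lowest, median and highest sample. Its next classes were pericyte-like at 51.6 ± 19.0 CPM and astrocyte-like at 30.1 ± 1.83, and the fibroblast-like samples overlapped neither. Col3a1, the chain of the thin type III fibrils, was at 81.2, 166 and 309 CPM in fibroblast-like nuclei and 21.9 ± 6.95 CPM in pericyte-like nuclei. Outside these 2 classes Col3a1 had a mean of no more than 0.333 CPM. Col1a1 reached 66.1 ± 33.0 CPM in fibroblast-like nuclei, next to 3.28 ± 0.680 in astrocyte-like nuclei. It had no UMI in any pericyte-like library, which allows up to 2.56 CPM over all 466 nuclei (3 counts of the class total, counting error only).

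Col5a2, which helps to start type I fibrils, followed the same order with wider reach. It stood at 262 ± 72.9 CPM in fibroblast-like, 113.5 ± 25.3 in pericyte-like, 68.8 ± 11.1 in ependymal-like, 45.7 in astrocyte-like and 41.3 in endothelial-like nuclei. Its partner Col5a1 was at 31.0 ± 21.8 CPM in fibroblast-like nuclei, where 1 sample at 71.9 stood apart from the other 5 (10.2 to 31.9). The third type V chain, Col5a3, had another place: ependymal-like nuclei, the ciliated lining of the ventricles, held 169, 191 and 196 CPM in their lowest, median and highest sample. Fibroblast-like nuclei came second for Col5a3 with 57.5 ± 37.6 CPM, all 6 samples below every ependymal-like one.

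The remaining fibril genes lay mostly outside the fibroblast-like class. Col27a1, a fibril chain best known from cartilage, was highest in microglia-like nuclei at 243, 288 and 339 CPM. Pericyte-like nuclei (146 ± 60.2 CPM) overlapped that range through 1 sample at 262, and ependymal-like nuclei (107 ± 10.8) did not. Neuron classes had means of at most 4.44 CPM of Col27a1. Col11a1, a chain of the core of cartilage fibrils, had similar levels in medial septum-like neurons (165 ± 56.1 CPM), oligodendrocyte precursor-like nuclei (144 ± 7.13) and fibroblast-like nuclei (128 ± 64.6), and these ranges overlapped. With 1 more marker needed, 3 medial septum-like samples (42 nuclei) kept at least 10 nuclei and had 114 ± 3.22 CPM of Col11a1, against 126 ± 20.6 in the same samples before and 145 ± 9.55 in 6 precursor samples. Its partner Col11a2 was highest in oligodendrocyte precursor-like nuclei at 50.6 ± 5.08 CPM, above all samples of astrocyte-like nuclei (22.9 ± 1.97). Col24a1, a fibril chain of bone, was also highest in precursors at 14.5 ± 2.26 CPM.

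**Figure D2:**
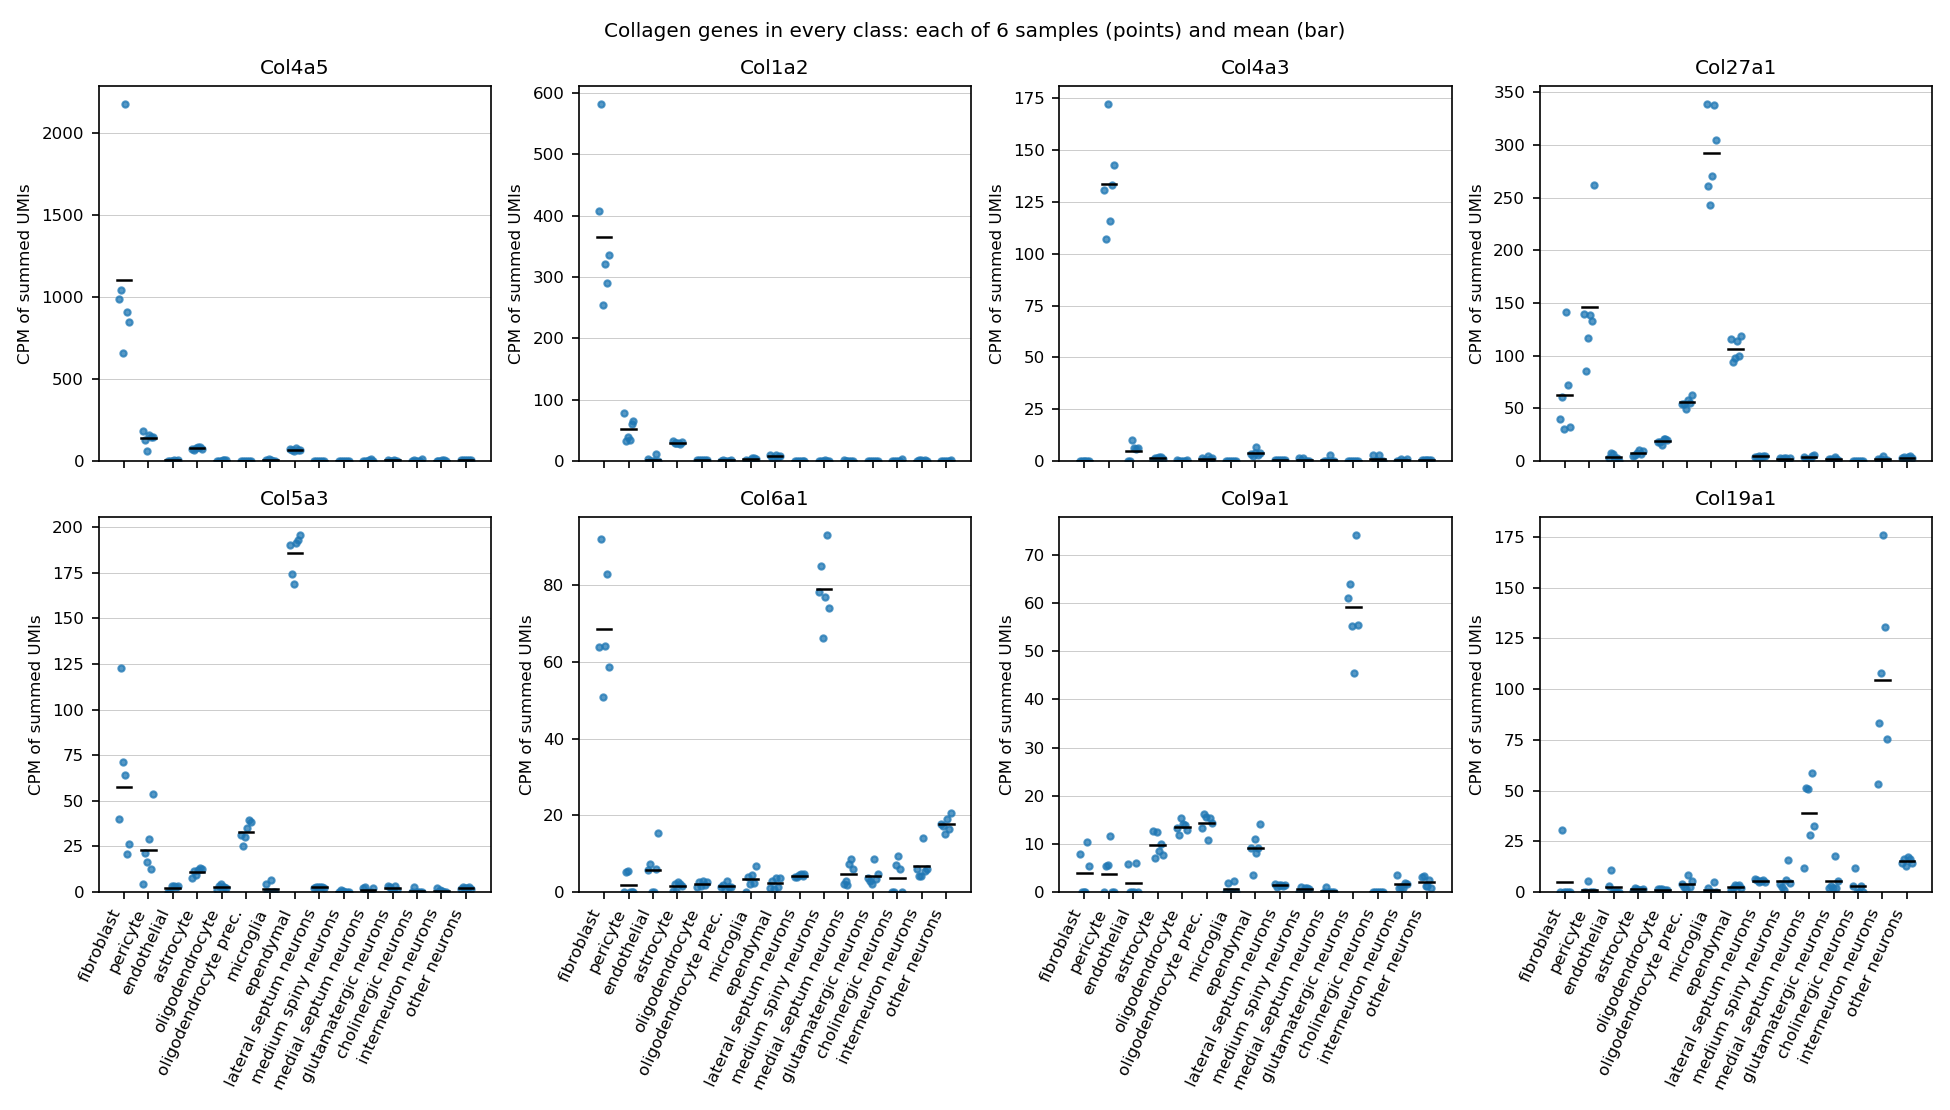
CPM of summed UMIs for collagen genes of different classes, with 1 point for each of 6 samples and a bar for the mean; the vertical axis is linear and starts at 0 in each panel. Col4a5 and Col1a2 are high in fibroblast-like, Col4a3 in pericyte-like, Col27a1 in microglia-like, Col5a3 in ependymal-like, Col9a1 in glutamatergic-like and Col19a1 in interneuron-like nuclei, while Col6a1 is high in fibroblast-like nuclei and medium spiny-like neurons.

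The 6 type IV genes lie as 3 head-to-head pairs in the genome (Col4a1 with Col4a2, Col4a3 with Col4a4, Col4a5 with Col4a6), and each pair had its own distribution. Type IV trimers are known in 3 forms, built from the products of Col4a1 with Col4a2, of Col4a3, Col4a4 and Col4a5 together, and of Col4a5 with Col4a6. Col4a1 was at 250 ± 76.5 CPM in fibroblast-like, 175 ± 45.7 in pericyte-like and 167 ± 37.2 in endothelial-like nuclei, with overlapping ranges. Col4a2 was at 186 ± 44.3 CPM in fibroblast-like, 173 ± 35.6 in endothelial-like, 140 ± 11.9 in ependymal-like and 126 in pericyte-like nuclei, also with overlap. Without replicate 4 the endothelial-like mean of Col4a2 was the highest (176 against 169.8 CPM). Both were detected in every neuron class: lateral septum-like neurons had 32.7 CPM of Col4a1 and 57.7 CPM of Col4a2.

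Col4a5 and Col4a6 stood far higher in fibroblast-like nuclei than in any other of the 15 classes. Col4a5 stood at 660.0, 951 and 2179.6 CPM in the lowest, median and highest fibroblast-like sample, 7.997 times the mean of pericyte-like nuclei (138 ± 41.8). One sample at 2179.6 lay apart from the other 5, which ended at 1042. Col4a6 stood at 579, 817 and 901 CPM, 7.79 times pericyte-like nuclei (102 ± 16.0). Beyond the vessel wall Col4a5 was present in astrocyte-like (79.4 ± 6.97 CPM) and ependymal-like nuclei (68.4 CPM), where Col4a6 was at 8.64 ± 1.66 and 6.58 ± 2.75 CPM.

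Upstream sequence is shown for genes that lay together or apart between 2 sides of the fibroblast-like gate. Col4a5, Col4a6, Col1a2 and Col3a1 were higher in 5 of 5 samples in nuclei with more Slc6a13 and Cemip UMIs. Col8a1 and Col6a1 were higher in 5 of 5 in nuclei with more Slc47a1 and Tbx15 UMIs. Each line gives the 200 bases from 250 to 51 before the RefSeq start (GRCm38.p6), 5' to 3' on the gene's strand. Capitals mark matches on either strand to CCAAT (or ATTGG), which is bound by the factor NF-Y, and to GGGCGG (or CCGCCC), a GC box bound by Sp1. A RefSeq window was at hand for 31 of the 40 genes.
Col4a5 (chrX:141475169-141475368, plus strand): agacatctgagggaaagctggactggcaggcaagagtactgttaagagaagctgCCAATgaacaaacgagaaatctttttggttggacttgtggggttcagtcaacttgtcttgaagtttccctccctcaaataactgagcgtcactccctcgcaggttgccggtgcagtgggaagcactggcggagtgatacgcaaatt
Col4a6 (chrX:141474127-141474326, minus strand): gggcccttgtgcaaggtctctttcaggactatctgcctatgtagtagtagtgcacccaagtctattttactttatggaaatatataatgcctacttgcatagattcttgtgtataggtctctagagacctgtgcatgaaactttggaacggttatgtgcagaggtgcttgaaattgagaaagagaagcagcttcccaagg
Col1a2 (chr6:4505368-4505567, plus strand): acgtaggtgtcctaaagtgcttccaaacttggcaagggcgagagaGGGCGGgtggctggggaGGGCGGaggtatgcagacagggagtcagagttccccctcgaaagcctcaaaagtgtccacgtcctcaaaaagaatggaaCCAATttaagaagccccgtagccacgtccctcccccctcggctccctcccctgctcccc
Col3a1 (chr1:45311288-45311487, plus strand): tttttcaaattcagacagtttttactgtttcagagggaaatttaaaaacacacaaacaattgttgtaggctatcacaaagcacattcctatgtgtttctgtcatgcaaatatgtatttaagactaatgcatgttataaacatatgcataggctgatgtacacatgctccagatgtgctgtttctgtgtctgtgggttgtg
Col8a1 (chr16:57754788-57754987, minus strand): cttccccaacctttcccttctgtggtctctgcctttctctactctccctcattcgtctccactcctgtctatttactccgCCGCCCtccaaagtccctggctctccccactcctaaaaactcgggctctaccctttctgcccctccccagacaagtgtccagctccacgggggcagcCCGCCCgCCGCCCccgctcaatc
Col6a1 (chr10:76726095-76726294, minus strand): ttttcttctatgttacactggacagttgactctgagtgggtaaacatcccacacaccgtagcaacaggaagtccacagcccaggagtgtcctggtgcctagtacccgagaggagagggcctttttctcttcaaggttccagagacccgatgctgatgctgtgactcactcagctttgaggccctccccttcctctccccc
The Col4a5 window held 1 CCAAT match and that of its neighbour Col4a6 none, and the start points used for these 2 divergent genes lie 1343 bases apart. The Col1a2 window held 1 CCAAT and 2 GGGCGG matches, and the Col8a1 window 3 GGGCGG matches. The Col3a1 and Col6a1 windows held neither. Over all 32851 promoter windows of the same 200 bases, 28.4% held CCAAT and 24.6% GGGCGG, so single matches are common. Among the 34 windows of collagen genes, 9 held CCAAT and 16 held GGGCGG. A match describes the letters only.

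Col4a3 and Col4a4 gave the clearest pericyte-like pattern. Col4a3 had 107, 132 and 172 CPM in the lowest, median and highest pericyte-like sample, 27.7 times the second class, endothelial-like nuclei at 4.83 ± 4.05. Col4a4 had 17.8, 70.8 and 109 CPM in pericyte-like nuclei, and ependymal-like nuclei overlapped this range at 43.1 ± 7.53 CPM. Neither gene had a UMI in the 157 fibroblast-like nuclei, which allows up to 4.61 CPM. Pericyte-like nuclei thus held RNA of all 6 type IV genes, while fibroblast-like nuclei held 4.

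The balance within each pair also moved between classes. Shares of UMIs between 2 genes depend on their length and 3' ends, so only the change of 1 share across classes is read. Col4a1 gave 56.9 ± 4.04% of the UMIs of Col4a1 and Col4a2 in fibroblast-like and 57.6 ± 8.06% in pericyte-like nuclei, 49.1 ± 8.72% in endothelial-like nuclei and 26.9 to 37.6% in the glial and neuron classes measured. Col4a5 gave 56.4 ± 8.16% of the Col4a5 and Col4a6 UMIs in fibroblast-like and 56.4 ± 11.3% in pericyte-like nuclei. In astrocyte-like nuclei it gave 90.2 ± 1.47% and in ependymal-like nuclei 91.4 ± 3.23%, above every fibroblast-like and pericyte-like sample. Col4a3 gave 68.2 ± 12.4% of the Col4a3 and Col4a4 UMIs in pericyte-like nuclei and 8.34 ± 3.5% in ependymal-like nuclei.

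**Figure D3:**
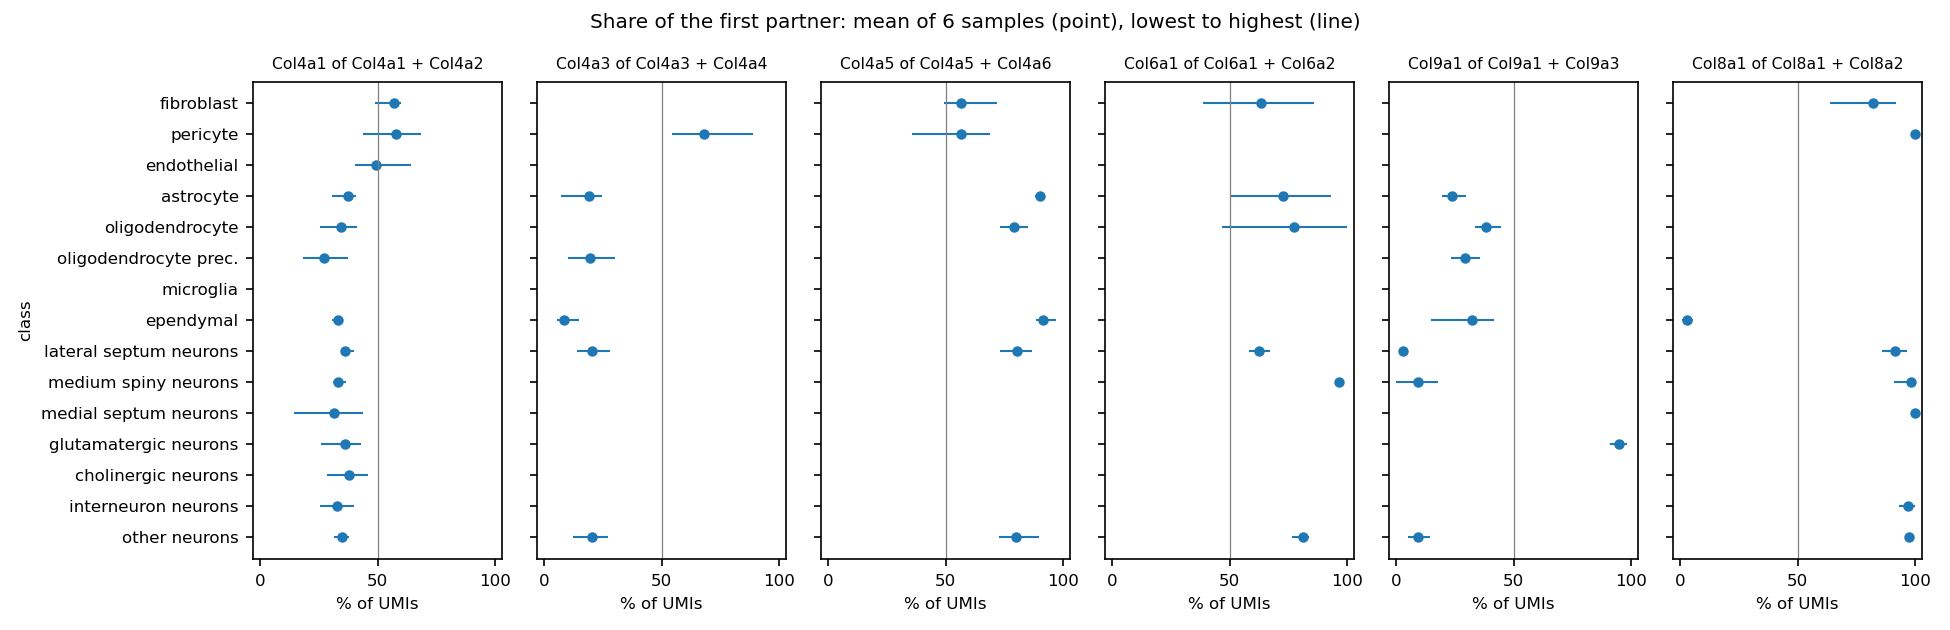
Share of UMIs (horizontal axis, %) given by the first gene of 6 pairs of partner chains in each class (rows); points are means of 6 samples and lines run from the lowest to the highest sample. Classes with under 60 UMIs of a pair are left blank. Col6a1 and Col9a1 take nearly the whole of their pair in 1 neuron class each, and Col8a1 gives way to Col8a2 in ependymal-like nuclei.

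Type VI collagen needs chains from Col6a1, Col6a2 and another gene such as Col6a3 in its classical trimer. All 3 were detected in the sums of fibroblast-like nuclei, from 43, 31 and 24 UMIs. Col6a1 was at 68.7 ± 15.5 CPM, Col6a2 at 42.4 ± 26.4 and Col6a3 at 38.9 ± 14.8 in that class. Whether single nuclei held all 3 was not looked at. In 2 neuron classes 1 of the 3 genes stood far above its level in the other. In medium spiny-like neurons, the projection neurons of the striatum and accumbens, Col6a1 stood at 66.3, 77.5 and 93.1 CPM, while Col6a2 was at 2.99 ± 1.16 and Col6a3 at 1.52 ± 1.09 CPM. In lateral septum-like neurons Col6a3 was at 34.1 ± 4.84 CPM from 5259 UMIs and Col6a1 at 4.32 ± 0.307. Lateral septum-like and fibroblast-like samples overlapped for Col6a3, and without replicate 5 the neurons were higher (34.7 against 34.3 CPM). Col6a1 thus gave 96.4 ± 1.34% of Col6a1 and Col6a2 UMIs in medium spiny-like neurons and 62.5 ± 3.46% in lateral septum-like neurons, where fibroblast-like nuclei had 63.5 ± 17.8%. Col6a3 gave 88.6 ± 1.99% of Col6a3 and Col6a1 UMIs in lateral septum-like neurons, 1.97 ± 1.46% in medium spiny-like neurons, 30.8 ± 5.80% in other neurons and 35.3 ± 5.24% in fibroblast-like nuclei. Col6a6, a chain related to Col6a3, was highest in endothelial-like nuclei at 15.9 ± 15.9 CPM, from 0 in the lowest sample to 41.9 in the highest, and the related Col28a1 in pericyte-like nuclei at 14.1 ± 8.84.

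Of the 5 network, anchoring and basement membrane-zone genes, 4 were highest in fibroblast-like nuclei and Col8a2 in ependymal-like nuclei. Col8a1, a short chain that forms hexagonal networks, was at 256 ± 116 CPM in fibroblast-like and 103.2 ± 35.7 in pericyte-like nuclei, with overlapping ranges. Its partner Col8a2 was highest in ependymal-like nuclei at 81.4, 87.7 and 112 CPM, and had no UMI in pericyte-like nuclei (up to 2.56 CPM allowed). Col15a1, a proteoglycan of the basement membrane zone, was at 142, 334 and 449 CPM in fibroblast-like nuclei and 69.0 ± 6.29 in microglia-like nuclei. Col18a1, the source of endostatin, was at 69.6 ± 19.2 CPM in fibroblast-like and 21.2 ± 4.13 in oligodendrocyte precursor-like nuclei, with no overlap. Col7a1, which forms the anchoring fibrils of skin, had 20.01 ± 15.9 CPM in fibroblast-like and 17.6 ± 8.08 in pericyte-like nuclei, and without replicate 1 or replicate 4 the pericyte-like mean was the higher (19.4 against 16.0, and 18.8 against 16.3).

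Of the 9 fibril-associated genes, 3 had a highest class whose samples all lay above the second class: Col9a1, Col12a1 and Col22a1. Col12a1, which coats type I fibrils, was at 135, 357 and 567 CPM in fibroblast-like nuclei, 34.4 times the ependymal-like mean (10.3 ± 3.84). Col22a1, known from tissue junctions, was at 63.3 ± 33.5 CPM in fibroblast-like and 10.9 ± 3.52 in ependymal-like nuclei, without overlap. Col20a1 was highest in ependymal-like nuclei at 43.3 ± 4.48 CPM, and Col16a1 in oligodendrocyte precursor-like nuclei at 38.8 ± 7.06, both overlapping fibroblast-like nuclei. Col14a1 had only 9 UMIs in fibroblast-like nuclei, and without replicate 3 its mean there was 5.32 instead of 12.9 CPM and endothelial-like nuclei were higher.

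The type IX genes, whose 3 chains form 1 trimer in cartilage, were highest in 3 different classes. Col9a1 was at 45.5, 58.2 and 74.1 CPM in glutamatergic-like neurons, 4.15 times the oligodendrocyte precursor-like mean (14.3 ± 1.97). Col9a3 was highest in lateral septum-like neurons at 45.1 ± 3.14 CPM and was at 3.41 CPM in glutamatergic-like neurons. Col9a2 did not pass 13.6 ± 3.35 CPM in any class, with the highest mean in oligodendrocyte precursor-like nuclei. Col9a1 accordingly gave 94.9 ± 2.51% of the Col9a1 and Col9a3 UMIs in glutamatergic-like neurons and 3.04 ± 0.685% in lateral septum-like neurons. Oligodendrocyte precursor-like nuclei were the class with all 3 genes above 10 CPM. Col19a1, which is known to be made by interneurons of the forebrain, was at 53.1, 95.6 and 176 CPM in interneuron-like neurons. Medial septum-like neurons came second for Col19a1 at 38.9 ± 17.7 CPM and overlapped the lowest interneuron-like sample. With 1 more marker needed, 3 interneuron-like samples (34 nuclei) kept at least 10 nuclei, and their Col19a1 mean was 306 ± 57.4 CPM, against 138 ± 34.7 in the same samples before.

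The 3 membrane-spanning genes were all highest in fibroblast-like nuclei, and 2 of them, Col23a1 and Col25a1, also had high levels in lateral septum-like neurons. Col13a1, known from the neuromuscular junction, was at 101, 164 and 308 CPM in fibroblast-like nuclei and 6.08 ± 11.2 in pericyte-like nuclei, without overlap, and at no more than 0.406 CPM in the neuron classes. Col23a1 was at 423, 491 and 827 CPM in fibroblast-like nuclei and 97.9 ± 9.70 in lateral septum-like neurons. Col25a1, a neuronal membrane collagen whose shed part is found in amyloid plaques, was at 857, 955 and 997 CPM in lateral septum-like neurons, above all samples of other neurons (456 ± 55.8). Fibroblast-like nuclei spread around this range for Col25a1, with 208 in the lowest sample, 1109 as the median and 2071 in the highest. Col26a1, a collagen with an emilin-like domain, was at 194 ± 63.4 CPM in fibroblast-like and 187 ± 11.9 in ependymal-like nuclei. Leaving out replicate 2, 4 or 5 put the ependymal-like mean of Col26a1 on top.

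Col25a1 spread widely between fibroblast-like samples, and collagen levels were looked at on 2 sides of that gate. The gate markers Slc6a13 and Cemip were found in some nuclei, and Slc47a1 and Tbx15 in others, and nuclei were divided by which pair had more UMIs. This division was chosen after the levels were seen and is a description. There were 98 nuclei with more Slc6a13 and Cemip UMIs, 54 with more Slc47a1 and Tbx15 UMIs, and 5 with equal numbers. Both sides had a median of 7 fibroblast, 2 neuron and 0 lateral septum markers detected, with median depths of 3396 and 4522.5 UMIs. The split genes are themselves among the 15 fibroblast markers. Medians of astrocyte, oligodendrocyte and endothelial markers were 2, 0 and 0 on the first side and 1, 1 and 1 on the second. Sample means used at least 5 nuclei, which left 6 samples on the first side and 5 on the second.

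Of 27 collagen genes with at least 10 UMIs over both, 13 were higher on the Slc6a13 and Cemip side in 5 of 5 samples, 5 were higher on the Slc47a1 and Tbx15 side in 5 of 5, and 9 were mixed. Among 8131 other genes with at least 10 UMIs, markers left out, 10.2% and 6.63% were higher in 5 of 5 on these sides, 16.8% in all. The collagen genes had more UMIs (median 101 against 31), and they were chosen with levels in view, so the counts are a description. All 4 type IV genes found in fibroblast-like nuclei were higher on the first side in 5 of 5. Col4a5 was at 1789 ± 605 CPM (lowest 1288, n = 6) on it and 10.4 ± 17.7 CPM (highest 40.9, n = 5) on the second. Col4a6 was at 1363 ± 373 CPM and Col15a1 at 499.8 ± 162 on the first side, and neither had a UMI on the second (up to 11.6 CPM allowed). Col13a1 (275 ± 75.1 against 4.09 ± 9.15 CPM), Col26a1 (327 ± 120 against 12.6 ± 18.5) and Col4a1 (389 ± 124 against 55.7 ± 16.0) were likewise higher on the first side, without overlap.

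The 5 genes higher on the Slc47a1 and Tbx15 side came from different families: Col25a1 and Col23a1 span the membrane, Col8a1 and Col8a2 form networks, and Col6a1 is a type VI chain. Col25a1 was at 3013 ± 729 CPM there, with the lowest sample at 2321, and at 57.4 ± 22.4 CPM on the other side, with the highest at 82.5. Col8a1 was at 599 ± 354 against 35.4 ± 28.8 CPM, Col8a2 at 101 ± 35.6 against 9.80 ± 19.3, Col6a1 at 131 ± 56.1 against 30.3 ± 33.0 and Col23a1 at 890.2 ± 416 against 345 ± 133. Among fibril-forming genes, Col1a2 (458 ± 170 against 230 ± 57.5 CPM), Col3a1 (271 ± 171 against 41.3 ± 43.1), Col5a3 (97.0 ± 60.5 against 0) and Col27a1 (101 ± 67.1 against 2.23 ± 4.99) were higher on the first side in 5 of 5 samples. Col1a1, Col5a1, Col5a2 and Col11a1 were mixed, as was the fibril-associated Col12a1 (283 ± 149 and 421 ± 214 CPM). The sample with the lowest Col25a1 in the whole class (208 CPM) had 4 of its 29 nuclei on the Slc47a1 and Tbx15 side, and the sample with the highest (2071 CPM) had 12 of 23. The other samples had 6 to 14 nuclei on that side, and the relation to Col25a1 across samples was not tested.

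**Figure D4:**
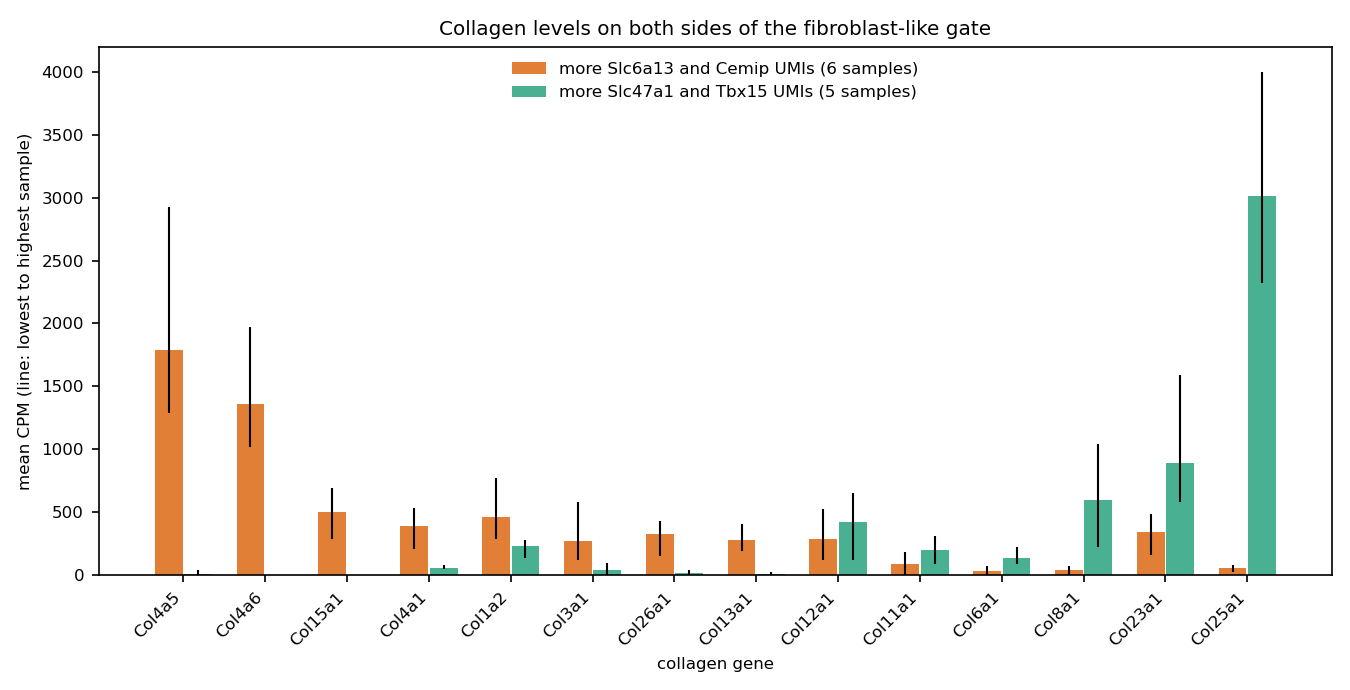
Mean CPM of collagen genes (bars, linear axis from 0) in fibroblast-like nuclei with more Slc6a13 and Cemip UMIs (orange, 6 samples) and with more Slc47a1 and Tbx15 UMIs (green, 5 samples); vertical lines run from the lowest to the highest sample. Col4a5, Col4a6 and Col15a1 stand on the orange side and Col25a1, Col23a1 and Col8a1 on the green side, with Col25a1 at 3013 CPM against 57.4.

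Within GABAergic neurons, collagen genes also differed between groups gated by other genes. The gate genes were chosen with earlier results of these data known, where Col25a1 was named with Tll1 and Col6a3 with Tacr1. The levels in these groups are therefore a description. Groups were nuclei with at least 2 UMIs of a gate gene, or of several gate genes summed. A group named by several genes thus did not need all of them in a nucleus. Nuclei passing more than 1 gate were left out. These were 713 to 967 GABAergic nuclei per sample, and each gated group kept 71 to 1890 nuclei over all samples. The Crhr2 group and the Glra3 and Pde11a group were taken from all GABAergic neurons, the others from lateral septum-like neurons. Nuclei with Tll1, which codes for a protease that trims procollagens, had the highest Col25a1: 1627, 1819 and 2405 CPM in the lowest, median and highest sample. Nuclei with Ano2 and Ntf3 followed at 1192 ± 76.8 CPM, and nuclei with Pax6 and Eya4 were lowest at 135 ± 32.4, with no overlap between these 3 groups. Lateral septum-like nuclei with none of the gate genes were at 919 ± 142 CPM.

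The Ano2 and Ntf3 group was set apart by Col15a1, at 29.97, 36.01 and 45.2 CPM, when no other gated group exceeded a mean of 5.97 ± 1.47. Col23a1 was not particular to that group. It was at 141 ± 26.8 CPM there, 135 ± 83.3 with Tacr1, 117 ± 33.7 with Crhr2 and 2.87 ± 1.47 with Pax6 and Eya4. The Ano2 and Ntf3 range overlapped that of Tacr1. Without replicate 1, 4 or 5 the Tacr1 mean was the highest. With 3 UMIs as the gate the Crhr2 mean was the highest (159 against 154 CPM). Col26a1 was at 92.8 ± 5.61 CPM with Ano2 and Ntf3, 79.1 ± 25.5 with Crhr2, 74.1 ± 8.13 with Tll1 and 17.5 ± 4.88 with Pax6 and Eya4. The ranges of the first 2 overlapped, and with 1 UMI as the gate the Crhr2 mean was higher (94.8 against 88.6 CPM). Nuclei with Glra3 and Pde11a had the highest Col11a1, at 109 ± 10.9 CPM, and the second lowest Col23a1, at 21.9 ± 3.95. For Col11a1 the sample ranges of this group overlapped only that of the Nts group, in which 1 of 6 samples reached 130.0 CPM. Col6a3 was highest in nuclei with Tacr1 (73.0 ± 47.3 CPM, n = 5 samples, 66 nuclei) and overlapped the Ano2 and Ntf3 group (38.9 ± 4.98). With 1 UMI of a gate gene as the gate, the Tacr1 mean of Col6a3 was 31.8 CPM, under the 36.4 of Ano2 and Ntf3.

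**Figure D5:**
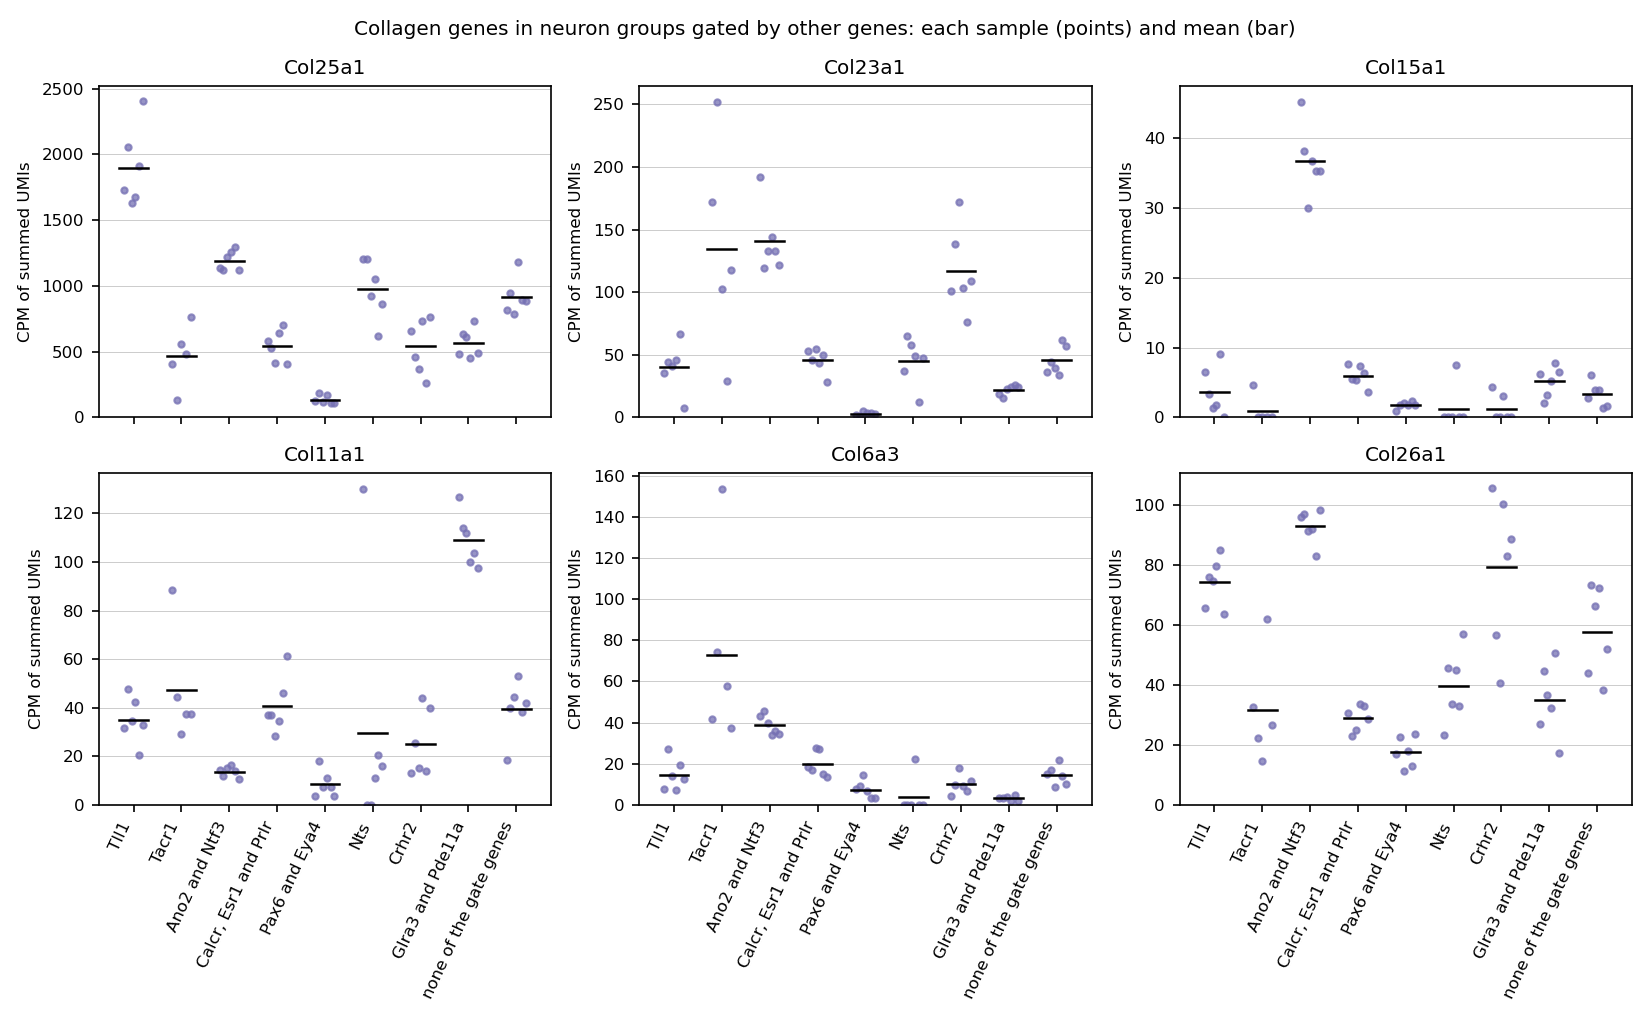
CPM of 6 collagen genes in neuron groups named by the genes whose summed UMIs gated them, with 1 point per sample (6, or 5 for Tacr1) and a bar for the mean. Axes are linear and start at 0. Col25a1 is highest with Tll1 and lowest with Pax6 and Eya4, Col15a1 with Ano2 and Ntf3, and Col11a1 with Glra3 and Pde11a.

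The share of nuclei with at least 1 UMI had the same highest class as the CPM for 16 of the 19 genes at 100 CPM or more in a class. Nuclei were thinned to 2000 UMIs, because deeper nuclei show more genes, and shallower nuclei were left out. Col4a5 was found in 49.8 ± 8.06% of 146 fibroblast-like nuclei (56.8 ± 7.30% unthinned) and 18.2 ± 5.20% of pericyte-like nuclei. Oligodendrocyte-like nuclei, the class with the lowest collagen sum, had 0.573 ± 0.194%. Unthinned, 23.5 ± 1.55% of astrocyte-like and 17.9 ± 1.56% of ependymal-like nuclei had a Col4a5 UMI. Col4a3 was found in 21.5 ± 3.17% of pericyte-like nuclei (22.5 ± 3.19% unthinned) against 0.0335 ± 0.0519% of oligodendrocyte-like nuclei. Col27a1 was found in 42.2 ± 8.57% of microglia-like (52.4 ± 6.51% unthinned), 22.1 ± 8.15% of pericyte-like and 3.53 ± 0.508% of oligodendrocyte-like nuclei. Unthinned, 27.4 ± 2.53% of ependymal-like and 26.8 ± 3.44% of oligodendrocyte precursor-like nuclei had a Col27a1 UMI. For Col25a1, 51.1 ± 1.79% of lateral septum-like neurons (75.9 ± 1.75% unthinned) and 38.3 ± 11.03% of fibroblast-like nuclei (42.3 ± 14.9% unthinned) had a UMI, and 13.6 ± 2.19% of oligodendrocyte-like nuclei did. Col25a1 stood at 39.3 to 133 CPM in the 5 glial classes. Whether these levels are background or expression was not tested. The highest class by share differed from that by CPM for 3 genes: Col25a1, Col4a1 and Col4a2.

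Genes that make, modify, bind and cut collagen were compared between classes with edgeR's quasi-likelihood test and Benjamini-Hochberg adjustment, with the sample as a block. These 95 genes in 6 lists are not collagens, and the comparisons share classes, so each is given on its own. Between fibroblast-like and pericyte-like nuclei 5077 genes were tested and 37.5% were called at an adjusted p under 0.05, 19.1% higher and 18.4% lower in fibroblast-like nuclei. Of 44 list genes tested, 18 were higher and 12 lower in fibroblast-like nuclei, and their median log2 difference was 0.41 against -0.0046 over all genes tested. Most of the 11 tested genes of secretion, propeptide removal and cross-linking were higher, 6 against 2 lower. They included Tll1 (158 ± 77.9 against 5.49 ± 6.37 CPM, log2 difference 4.65 ± 0.44 SE, adjusted p = 2.75e-14). Adamts2, the protease that removes the N-terminal propeptide of type I collagen, was at 200.5 ± 67.8 CPM in fibroblast-like nuclei. It had 2 UMIs in all pericyte-like libraries.

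Basement membrane partners went both ways, 3 higher and 6 lower of 12 tested. Lama1, a laminin chain, was at 1453 ± 348 CPM in fibroblast-like and 12.2 ± 7.28 in pericyte-like nuclei (log2 difference 6.67 ± 0.25, adjusted p = 1.2e-33), and Lama4 was lower in fibroblast-like nuclei (237 ± 92.1 against 460 ± 67.2 CPM, adjusted p = 7.53e-07). Among the collagen receptors, 4 were higher and 1 lower of 6 tested. Itga1, the type IV collagen-binding integrin chain, was the lower one at 142 ± 45.3 against 1489 ± 160 CPM (log2 difference -3.56 ± 0.19, adjusted p = 4.8e-26). Ddr2, a receptor for fibrillar collagen, was higher in fibroblast-like nuclei (306 ± 64.4 against 102.98 ± 26.9 CPM, adjusted p = 1.42e-08). Of 6 fibril-binding genes tested 2 were higher and 2 lower. Fibronectin, Fn1, was at 217 ± 109 against 4.59 ± 6.92 CPM (adjusted p = 1.45e-17). Asporin, Aspn, had 1 UMI in fibroblast-like libraries and 203 ± 26.3 CPM in pericyte-like ones.

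Against endothelial-like nuclei, fibroblast-like nuclei differed in 41.8% of 6246 genes tested, 19.9% higher and 21.9% lower. The list genes were higher in 28 and lower in 8 of 48 tested, with a median log2 difference of 1.95 against 0.02 over all genes. The other 47 were not tested. Secretion and cross-linking genes were higher in 6 of 9 tested and lower in 0, and 11 of this list were not tested. Pcolce, an enhancer of procollagen cutting, was at 76.4 ± 34.1 CPM in fibroblast-like nuclei with no UMI in endothelial-like ones. Adamts2 was at 3.69 ± 2.33 CPM in endothelial-like nuclei (adjusted p = 6.63e-16). Chain modification genes were higher in 1 and lower in 1 of 5 tested: P4ha1, the prolyl hydroxylase subunit, was higher (129 ± 20.3 against 60.5 ± 10.5 CPM, adjusted p = 0.000535), and Colgalt2, which adds galactose to collagen, lower (14.0 ± 13.2 against 136 ± 21.3 CPM, adjusted p = 2.43e-09). All 4 tested degrading enzymes and inhibitors were higher, such as Mmp14 (46.5 ± 23.6 against 2.55 ± 2.97 CPM, adjusted p = 1.57e-05).

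Pericyte-like and endothelial-like nuclei, which share a basement membrane in capillaries, differed in 42.3% of 5990 genes tested, 19.8% higher and 22.4% lower in pericyte-like nuclei. When nuclei with more than 1 marker of another class were left out, 2 samples remained and the counts fell from 1189 and 1342 to 144 and 177. Of 37 list genes tested 18 were higher and 8 lower in pericyte-like nuclei, with a median log2 difference of 0.88 against -0.0041 over all genes. The other 58 were not tested. Of 12 basement membrane partners tested, 6 were higher and 2 lower in pericyte-like nuclei, and 4 were not called. Lama2 was at 1863 ± 174 against 66.5 ± 15.5 CPM (adjusted p = 1.33e-67) and Nid1 at 360.0 ± 40.5 against 23.4 ± 10.1 (adjusted p = 4.83e-38). Lama3 was at 8.30 ± 8.43 against 98.4 ± 41.6 CPM (adjusted p = 3.39e-15). Lama5 had 1 UMI in pericyte-like libraries and 72.2 ± 12.97 CPM in endothelial-like ones. Of 7 collagen receptors tested, 3 were higher and 2 lower in pericyte-like nuclei. Ddr2 was higher (102.98 ± 26.9 against 8.03 ± 6.09 CPM, adjusted p = 4.64e-19). Adgrg6, which binds type IV collagen, had no UMI in pericyte-like nuclei and 85.8 ± 53.1 CPM in endothelial-like nuclei.

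Lateral septum-like and medium spiny-like neurons differed in 34.4% of 17522 genes tested, 18.9% higher and 15.5% lower in lateral septum-like neurons. Of 81 list genes tested, 23 were higher and 12 lower, with a median log2 difference of 0.17 against 0.04 over all genes. Adamts3, a procollagen-cutting protease, was at 53.5 ± 2.67 CPM in lateral septum-like and 419 ± 37.4 in medium spiny-like neurons (log2 difference -2.97 ± 0.06, adjusted p = 1.68e-30). Lama3 was higher in lateral septum-like neurons at 65.8 ± 5.99 against 7.74 ± 3.66 CPM (log2 difference 2.96 ± 0.14, adjusted p = 4.03e-19). Ddr2 was at 21.3 ± 2.08 against 0.816 ± 0.490 CPM (log2 difference 4.54 ± 0.26, adjusted p = 7.39e-17). Among 18 chain modification genes 5 were higher and 1 lower, with P3h2, a prolyl hydroxylase, at 19.3 ± 1.68 against 9.12 ± 4.02 CPM (adjusted p = 3.88e-07).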

How the data were processed

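The deposited files hold raw counts of UMIs per gene and barcode for 6 libraries, made by the authors with Cell Ranger: version 5.0.0 per the file headers, and version 3.1.0 with STAR per the submitters' processing notes. No source used here names the genome build or says whether intron reads were counted. The collagen genes, the lists of other genes, the markers and the gate genes of neuron groups were chosen with earlier results of these data known. Gate thresholds were set after their distributions over nuclei were seen.

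Barcodes with at least 500 genes were kept. Nuclei entered a class by the number of its markers detected (5 of 15 for fibroblast-like, 3 of 7 for pericyte-like). No doublet caller was run, and nuclei passing more than 1 broad gate were left out. Counts were summed per sample and class, with at least 10 nuclei, and scaled to CPM. Named collagens are those at 10 CPM or more in a class. Named list genes are up to 3 per list and direction with the greatest log2 difference, past the threshold and in the same direction in every sample; the text gives a part of them.

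Sums were tested with edgeR 4.0.16 in R 4.3.3 (quasi-likelihood test, TMM factors, low counts filtered, Benjamini-Hochberg adjustment, threshold 0.05) with the sample as a block, since both classes of a comparison come from the same library. The procedure was tested on simulated data, drawn from the pooled means of the fibroblast-like and pericyte-like comparison. Simulated libraries differed in depth only, so this run does not cover real differences between libraries, and nothing is read from it. Alternatives were DESeq2 1.42.0, RLE factors, no filter, no block, each replicate left out, other gates, at least 1000 genes and other thinning. Shares of nuclei were taken after thinning each nucleus to 2000 UMIs. Sums and figures used Python 3.11.15, numpy 2.4.6, scipy 1.17.1, pandas 2.3.3 and matplotlib 3.10.9. Floors of 3 counts cover counting error only. Libraries shared at most 0.433% of their barcodes.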

Additional observations from a re-analysis of the deposited data

Results flagged for a closer look

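In 3 of the 39 collagen genes at 10 CPM or more, 1 fibroblast-like sample stood apart from the other 5 by more than Dixon's 95% limit for 6 samples. Chance passes this limit in about 1 of 20 groups. Col4a5 was at 2179.6 CPM in replicate 4, with the others at 660.0 to 1042 (a gap to the nearest sample of 0.749 of the range). Col14a1 was at 50.8 CPM in replicate 3, with the others at 0 to 16.0 (0.685). Col5a1 was at 71.9 CPM in replicate 1, with the others at 10.2 to 31.9 (0.647).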

How the results depend on the processing

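The highest class stayed the same for 36 to 39 of 39 collagen genes when 1 replicate was left out, for 38 when 1 more marker was needed (chosen after seeing the data; fewer samples in small classes), and for 39 with at least 1000 genes, with means over nuclei, or without the deepest nuclei. Fibroblast-like nuclei were highest for 19 to 22 genes. Groups gated by genes were softer: of 17 genes at 10 CPM or more, 10 kept their highest group with 1 UMI as the gate, 13 with 3 UMIs, and 12 to 17 without 1 replicate. Without the replicate block, 721 and 724 genes were higher in fibroblast-like and pericyte-like nuclei, against 970 and 933 with it, and 980 and 1094 in fibroblast-like and endothelial-like nuclei, against 1242 and 1367; the block is the library itself. With no more than 1 marker of another class allowed, 2 samples remained for pericyte-like against endothelial-like, with 144 and 177 genes called against 1189 and 1342. That gate could not be run for fibroblast-like nuclei, since fewer than 10 were left per sample. Of 88 list gene entries meeting the naming rule, with a gene counted in each comparison where it met it, 9 lost their call in some alternative other than this gate. None reversed.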

Other observations

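Of 4 further collagen genes outside the 40, Col6a5, a type VI chain, was highest in ependymal-like nuclei at 37.4, 51.6 and 83.3 CPM in the lowest, median and highest sample, with interneuron-like neurons next at 8.38 CPM. Col6a4 was at 10.4 ± 2.04 CPM in ependymal-like nuclei. Among genes whose proteins carry a collagen-like helix, picked after their levels were seen, Emid1 was at 299 ± 14.4 CPM in oligodendrocyte precursor-like nuclei and 22.3 in pericyte-like nuclei. Colq, the collagen tail of acetylcholinesterase, was at 19.1 ± 3.88 CPM in ependymal-like nuclei. The complement genes C1qa, C1qb and C1qc were at 93.5 ± 12.4, 156 ± 24.1 and 122 ± 24.8 CPM in microglia-like nuclei.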
